A study of Homo sapiens with 12 samples.

Results

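The genes described here encode the contractile apparatus of smooth muscle: ACTA2, ACTG2, TAGLN, CNN1, CALD1, TPM1, TPM2, MYL9, MYLK and LMOD1. They were taken as a named set of 10 genes out of the 25702 in the count table, and all 10 passed the filter on low counts. RNA was sequenced from WI-38 cells, a line of normal human lung fibroblasts, in 4 conditions of 3 flasks each. D1 flasks were harvested 1 day after a change of medium, at passage 2 to 3, and D1+ TGF-β flasks had received 2 ng/mL TGF-β for that day. D20 and D20+ TGF-β flasks were kept for 20 days without or with TGF-β, to passage 5 to 6. Per the study's methods, all D20 flasks of a treatment descend from 1 flask, and the RNAs sequenced were chosen for quantity and quality. The methods also state that D1 flasks were confluent at the start of treatment, while D20 flasks were reseeded and had repeated changes of medium. Passage, time in culture, reseeding and feeding therefore cannot be told apart, nor, between the treated conditions, can the length of treatment be told apart from them. The p-values measure the spread between flasks that shared a source. Library totals ranged from 8674488 to 18286197 counts.

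In smooth muscle, sliding of myosin along actin filaments is switched on when myosin light chain kinase phosphorylates the regulatory light chain of myosin. Tropomyosins, caldesmon, calponin and transgelin bind the actin filament and tune this contact, and leiomodin nucleates new filaments. Fibroblasts take up part of this gene programme when TGF-β turns them into myofibroblasts, the contractile cells of wounds and scars. ACTA2, which encodes α-smooth muscle actin (αSMA), is the usual marker of that state. Many of these genes are driven by serum response factor (SRF), which binds a DNA site called the CArG box, together with the co-activators MRTF-A, MRTF-B and myocardin.

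The promoter windows of ACTA2, ACTG2 and MYLK are shown because they were the windows of the set, other than that of an outlying CALD1 start, that held a CArG box or a CArG-like box. The sequences are from RefSeq (table of GRCh38.p14) and were placed on GRCh37 by an exact match. Each runs 5′ to 3′ over the 250 bases before a transcription start, with the boxes in capitals. The ACTA2 window lay on the minus strand at chr10:90712531-90712780, the ACTG2 window on the plus strand at chr2:74119885-74120134 and the MYLK window on the minus strand at chr3:123339396-123339645.
ACTA2: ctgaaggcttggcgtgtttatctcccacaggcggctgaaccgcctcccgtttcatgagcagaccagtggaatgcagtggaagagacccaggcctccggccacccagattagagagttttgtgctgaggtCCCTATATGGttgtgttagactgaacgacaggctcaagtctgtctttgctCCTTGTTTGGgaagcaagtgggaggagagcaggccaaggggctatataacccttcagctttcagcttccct
ACTG2: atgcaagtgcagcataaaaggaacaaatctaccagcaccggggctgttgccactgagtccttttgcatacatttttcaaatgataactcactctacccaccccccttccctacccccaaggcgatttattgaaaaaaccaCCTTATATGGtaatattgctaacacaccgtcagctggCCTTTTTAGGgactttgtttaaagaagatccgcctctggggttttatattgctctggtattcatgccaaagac
MYLK: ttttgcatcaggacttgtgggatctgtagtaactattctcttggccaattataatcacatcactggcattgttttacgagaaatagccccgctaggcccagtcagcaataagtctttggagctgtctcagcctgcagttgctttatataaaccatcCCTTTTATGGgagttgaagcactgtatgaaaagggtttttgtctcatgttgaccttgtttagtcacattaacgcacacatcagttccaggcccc

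The ACTG2 window held 2 CArG boxes, CCTTATATGG at position -110 and CCTTTTTAGG at position -73 from the start. The ACTA2 window held 2 CArG-like boxes, in which 1 A or T of the core is replaced, CCCTATATGG at position -121 and CCTTGTTTGG at position -71. The CArG box of MYLK, CCTTTTATGG at position -94, belongs to a start 263784 bases inside the gene from that of its MANE Select transcript, where a short product named telokin begins. The remaining match was a CArG-like box, CCTAAAGAGG, at position -26 of a CALD1 start. In all, 13 windows of 8 genes were in the table. It held none for TAGLN and MYL9, so these genes were not searched for boxes. The search covered the 250 bases before and 50 after each start, the box reads alike on both strands, and of 35116 such windows 1.29% held a CArG box and 6.94% a CArG-like box. A match is a match of letters and no evidence of binding.

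The cells carried fibroblast markers in every library, with COL1A1 at 2548 to 8184 cpm (a gene's counts divided by its library's effective total and rescaled) and VIM at 5849.6 to 7874 cpm. Of 8 markers of mature smooth muscle 5 passed the filter, SMTN (smoothelin) at 46.7 to 155 cpm, SYNPO2 (synaptopodin-2) at 13.1 to 57.4 cpm and ACTG2, CNN1 and LMOD1 of the set itself. MYH11, the smooth muscle myosin heavy chain, reached 1.20 cpm and DES, which encodes desmin, 0.711 cpm at most. MYOCD, which encodes myocardin, was highest at D20, with a mean of 5.28 cpm, beside 2.04 at D1+ TGF-β, 1.38 at D20+ TGF-β and 0.652 at D1. Its level stayed under the filter and it was not tested. Markers of epithelial, endothelial and blood cells passed the filter in 3 of 6, 1 of 5 and 1 of 5 cases, while CDH1, PECAM1 and PTPRC of these lists reached 0.287, 0.308 and 0.194 cpm at most. Those that passed included the keratin KRT18 at 20.1 to 40.2 cpm, the receptor TEK at 33.2 to 248.99 cpm and CD68 at 38.1 to 62.6 cpm, named here after their values were seen. KRT18 changed by 0.66 with TGF-β on day 1 and by -0.75 on day 20 (log2 fold change, edgeR adjusted p = 1.78e-04 and 2.77e-05). The other epithelial markers tested were not called on either day, KRT8 at -0.08 and -0.31 and KRT19 at -0.65 and -0.57. TEK was higher at D20 than at D1 by 2.05 (edgeR adjusted p = 8.83e-06). The part of such genes in the results was not tested. In bulk RNA, fewer cells that express a gene and less of its RNA per cell cannot be told apart.

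Of the flasks, D1 replicate 2 was the lowest of its condition for 8 of the 10 genes, which was the case for 38.6% of the 9490 genes tested. D20+ TGF-β replicate 3 was the highest of its condition for 9 of the 10, against 40.0% of the genes tested. Log2 fold changes of the set within a day or between days that moved by more than 1.5 times without either are given both ways. The genes together took 0.603% ± 0.085 (SD, n = 3) of all counts at D1 and 0.950% ± 0.045 at D1+ TGF-β. At D20 they took 0.815% ± 0.0070 and at D20+ TGF-β 0.605% ± 0.012. The summed share was thus highest after 1 day of TGF-β, and after 20 days it was lower with TGF-β than without it. Abundant genes weigh most in this sum, such as MYLK, with means of 2373 cpm at D20 and 1118 at D20+ TGF-β. Between these conditions 8 of the 10 log2 fold changes were negative and 2 positive, those of ACTA2 and TAGLN.

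**Figure D1:**
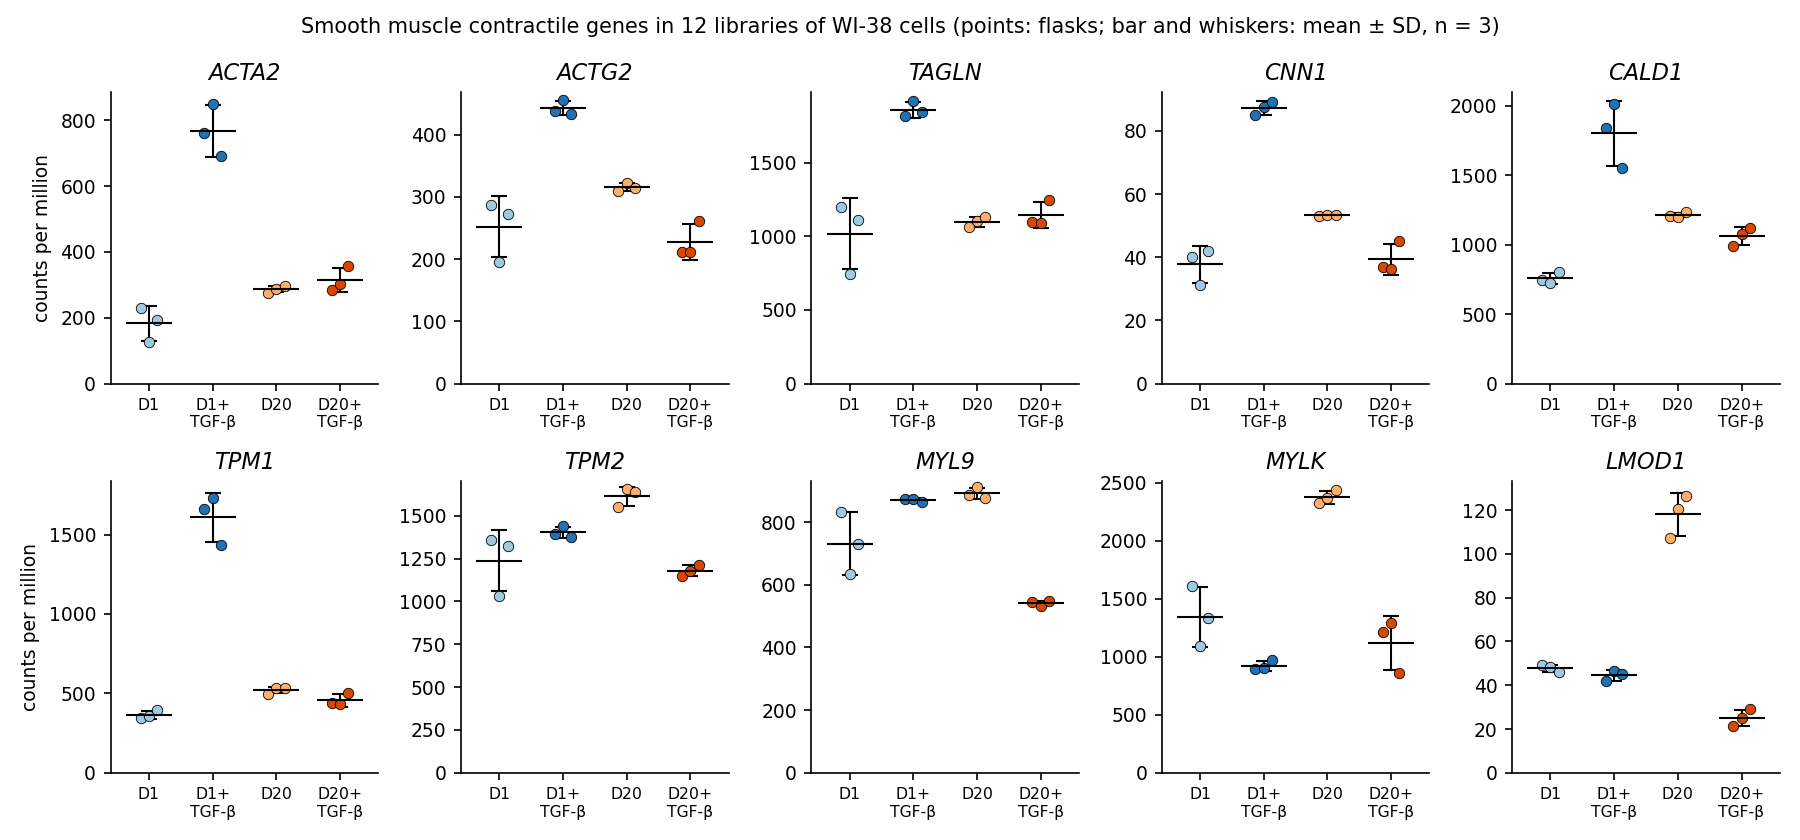
Counts scaled to library size (cpm, vertical axes from 0) of each of the 10 contractile genes in the 12 libraries, by condition on the horizontal axes. Points are flasks, and bars and whiskers the mean ± SD of 3 flasks. ACTA2, CALD1 and TPM1 stand highest at D1+ TGF-β, MYLK and LMOD1 at D20.

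The 10 genes were highest in 1 of 2 conditions. ACTA2, ACTG2, TAGLN, CNN1, CALD1 and TPM1 had their highest mean at D1+ TGF-β, and TPM2, MYL9, MYLK and LMOD1 at D20. Of all tested genes, 26.4% were highest at D1+ TGF-β and 31.6% at D20. No gene of the set had its highest mean at D20+ TGF-β, where 22.7% of all tested genes had theirs, or at D1, where 19.3% did.

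**Figure D2:**
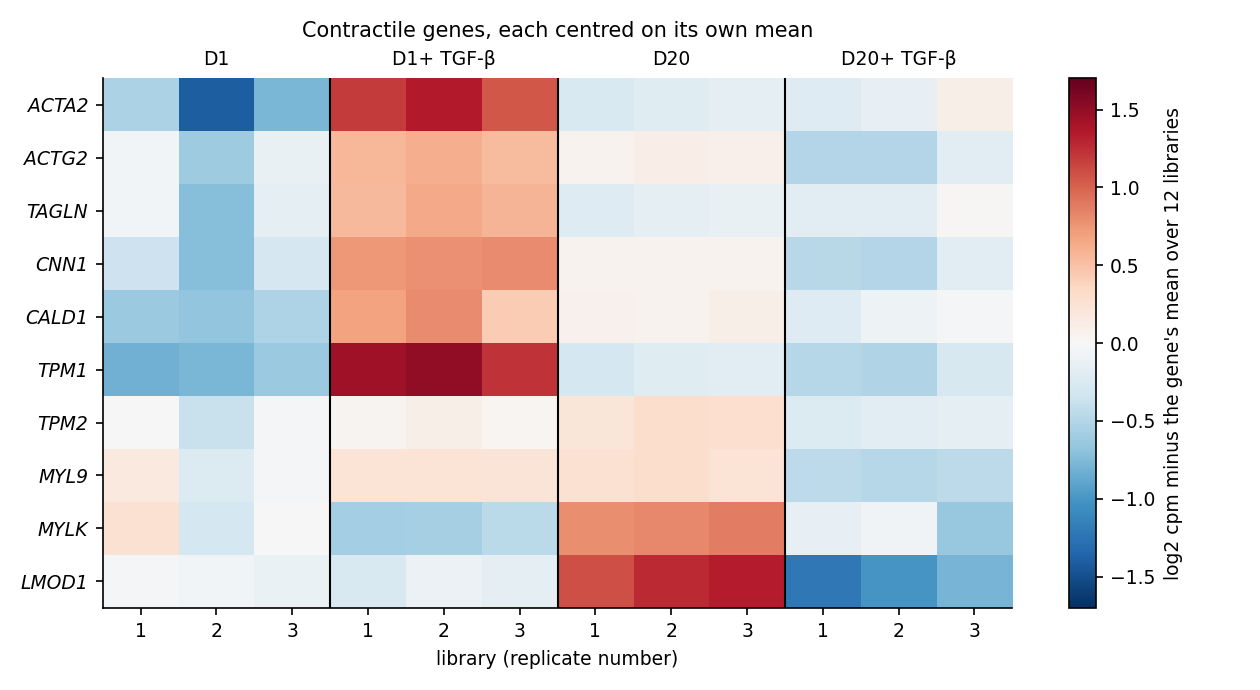
Log2 cpm of the 10 genes (rows) in the 12 libraries (columns), each gene centred on its own mean over the libraries, with red above and blue below that mean. The genes from ACTA2 to TPM1 are reddest at D1+ TGF-β and the genes from TPM2 to LMOD1 at D20, and D1 replicate 2 is bluer than the other D1 flasks for ACTA2, TAGLN and CNN1.

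The comparison of D1+ TGF-β with D1 asks what 1 day of TGF-β did. Of the 10 genes 6 rose and 0 fell, where 6.89% of the 9490 tested genes were called higher and 6.5% lower (edgeR quasi-likelihood test, Benjamini-Hochberg adjusted p under 0.01). The median log2 fold change of the set was 0.84, beside -0.02 for all tested genes. Flasks of the 2 conditions did not overlap for 8 genes that were higher and 1 that was lower, and 36.4% of all tested genes did not overlap in either direction. The comparison of D20+ TGF-β with D20 asks the same after 20 days. There 0 genes of the set were higher and 6 were lower, with 12.8% of all tested genes called higher and 14.7% lower. The median of the set was -0.45, beside 0.01 for all tested genes. Flasks did not overlap for 7 genes of the set, all lower with TGF-β, and for 58.3% of all tested genes. The 2 comparisons share no library.

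**Figure D3:**
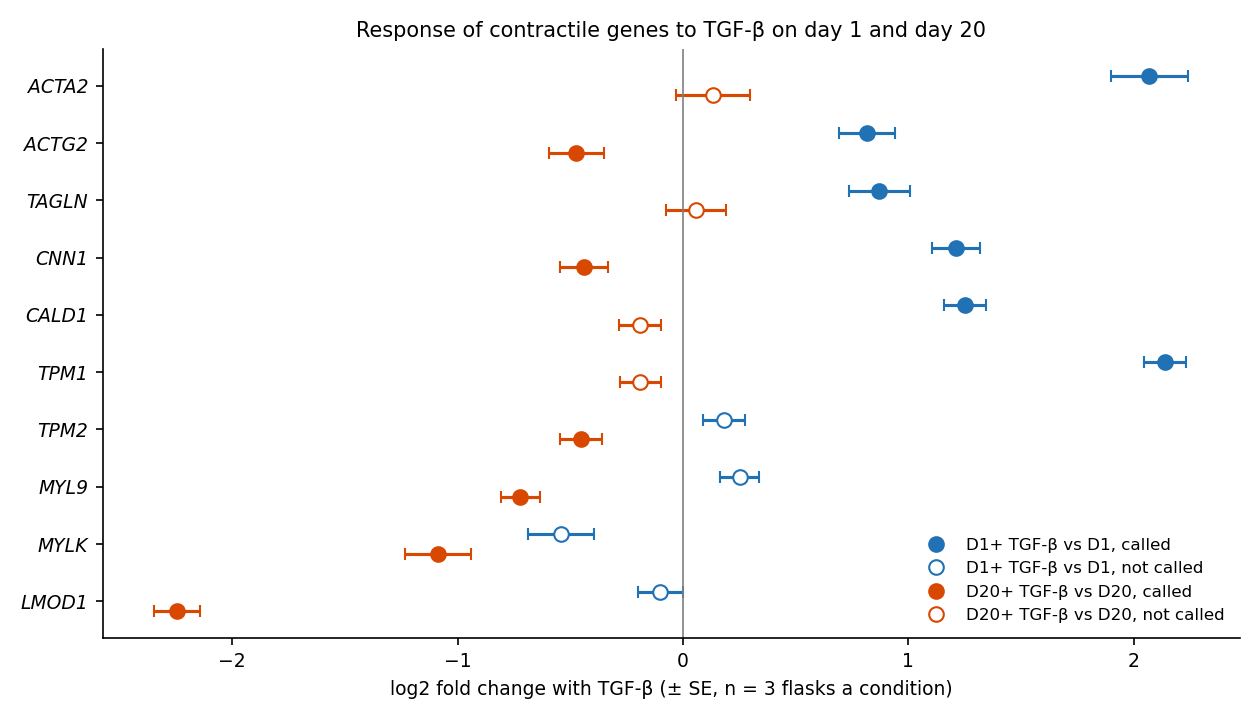
Log2 fold change with TGF-β of each contractile gene on day 1 (blue) and day 20 (orange), with the standard error from 3 flasks a condition. Filled points were called at an adjusted p under 0.01 and open points were not. Every orange point lies left of the blue point of the same gene.

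Actins form the filament itself. ACTA2 (Entrez 59, GRCh37 chr10:90694831-90751096, minus strand) had 229, 125 and 195 cpm in the 3 D1 flasks and 761, 850.2 and 692 at D1+ TGF-β. The treated flasks were all above the untreated ones. This gave a log2 fold change of 2.07 ± 0.17 (SE), a fold of 4.20, with an edgeR adjusted p = 2.28e-06. Without D1 replicate 2, the lowest D1 flask, it was 1.87. On day 20 the untreated flasks had 277, 288 and 297 cpm and the treated ones 285, 302 and 357. These overlapped, and the log2 fold change of 0.13 ± 0.17 was not called (edgeR adjusted p = 0.554) and was 0.033 without D20+ TGF-β replicate 3. After long treatment ACTA2 was at 315 ± 37.4 cpm, beside 768 ± 79.4 after 1 day, a log2 fold change of -1.29 ± 0.17 (edgeR adjusted p = 4.41e-05). The study reports more αSMA protein with TGF-β than without it after long treatment. In its staining for αSMA, most treated cells were positive after long treatment and none after short treatment. Levels of RNA do not measure the protein, and whether the cells were myofibroblasts was not tested here.

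Untreated cells had more ACTA2 at D20 than at D1, by a log2 fold change of 0.65 ± 0.17 (edgeR adjusted p = 0.00531). That call was lost without D1 replicate 3, without any 1 of the D20 flasks and with only the libraries compared, where the adjusted p ranged from 0.0123 to 0.0202. Without D1 replicate 2 the log2 fold change was 0.42, with an adjusted p = 0.00537. From highest to lowest, the order of ACTA2 levels was D1+ TGF-β, D20+ TGF-β, D20, D1, with overlap only between D20+ TGF-β and D20.

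ACTG2 (Entrez 72, chr2:74119441-74146992, plus strand) encodes the other smooth muscle actin, found mainly in gut and bladder. It had 287, 196 and 272 cpm at D1 and 439, 456 and 434 at D1+ TGF-β, without overlap. Its log2 fold change was 0.82 ± 0.12 (edgeR adjusted p = 3.42e-04). At D20 it had 310.3, 323 and 315 cpm and at D20+ TGF-β 211, 211 and 261. Here the treated flasks were all below the untreated ones, with a log2 fold change of -0.47 ± 0.12 (edgeR adjusted p = 0.00715). The call was lost without any 1 of the D1+ TGF-β flasks, any 1 of the D20 flasks or D20+ TGF-β replicate 1 or 2 (adjusted p from 0.0115 to 0.0368), and with no composition factor (0.0115).

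The share of smooth muscle actins among the 4 actins ACTA2, ACTG2, ACTB and ACTG1, in cpm per kilobase, sets these levels against the cytoskeletal actins. Lengths were those of the union of exons. The share was 5.39% ± 1.00 (SD, n = 3) without and 11.1% ± 0.560 with TGF-β on day 1, and 8.34% ± 0.216 and 8.79% ± 0.318 on day 20. On this scale the D20+ TGF-β flasks, 8.59% to 9.15%, lay just above the D20 flasks, 8.11% to 8.54%. ACTB, the β-actin of the cytoskeleton, was itself lower at D20+ TGF-β (3152 cpm) than at D20 (4358), while ACTG1 had 1978 and 1957 cpm. The order of the conditions was the same with the longest transcript and with the MANE Select transcript as length, with D1+ TGF-β at 12.4% and 15.6%.

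**Figure D4:**
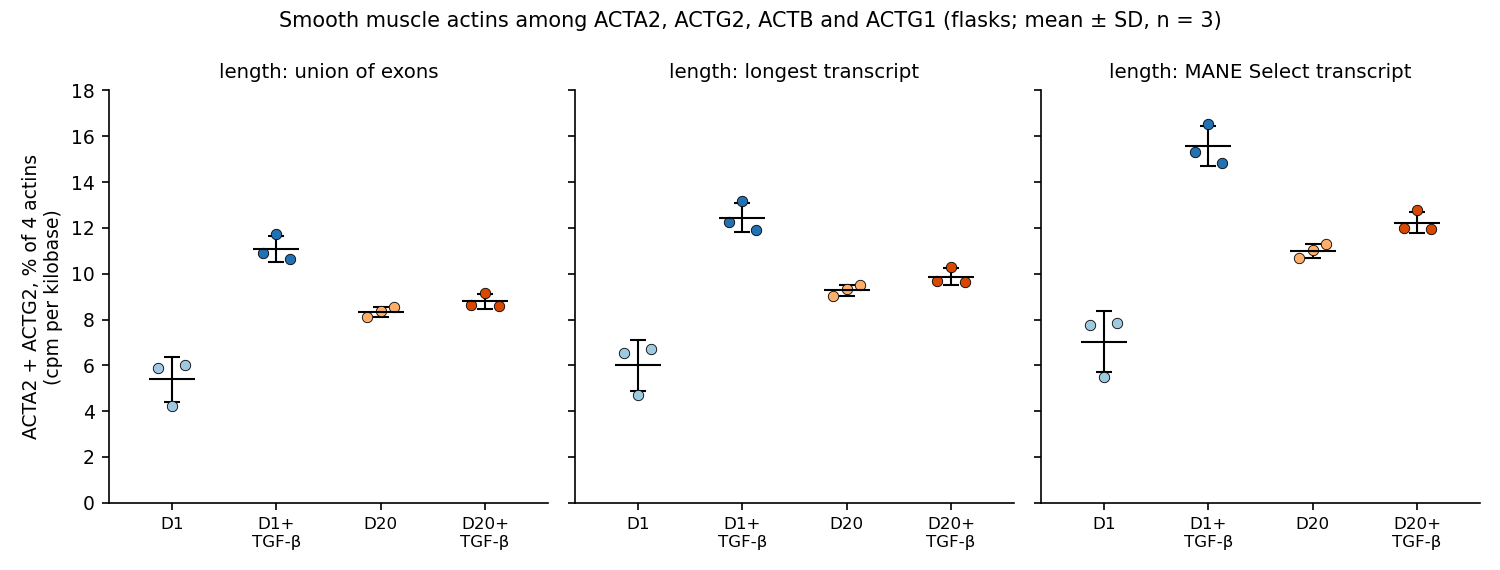
Share of ACTA2 and ACTG2 among 4 actin genes, in % of cpm per kilobase (vertical axes from 0), by condition and for 3 choices of transcript length. Points are flasks, bars and whiskers mean ± SD of 3 flasks; D1 is lowest and D1+ TGF-β highest in each panel.

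Transgelin, calponin and caldesmon bind along the actin filament. TAGLN (Entrez 6876, chr11:117070086-117078180, plus strand) encodes transgelin and ranged from 745 to 1199 cpm at D1 and from 1815 to 1922 at D1+ TGF-β. The log2 fold change was 0.87 ± 0.13 (edgeR adjusted p = 4.20e-04), or 0.70 without D1 replicate 2. At D20, from 1066 to 1134 cpm, and at D20+ TGF-β, from 1091 to 1250.3, the flasks overlapped, and the log2 fold change of 0.06 ± 0.13 had an edgeR adjusted p = 0.757. It was -0.01 without D20+ TGF-β replicate 3. TAGLN shared 2233 exon bases with PCSK7 on the opposite strand, and 65.3% of the 75-base words of its transcript were also in a gene model of uncertain status on its own strand. PCSK7 had 95.3 cpm at D1 and 110.2 at D1+ TGF-β, so its levels were under those of TAGLN, and the use of strand in counting is not stated.

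CNN1 (Entrez 1264, chr19:11649582-11661138, plus strand) encodes basic calponin, an inhibitor of the actin-myosin contact and a late marker of smooth muscle. Its levels were 40.2, 31.1 and 42.1 cpm at D1 and 85.0, 87.6 and 89.2 at D1+ TGF-β. All treated flasks were above the untreated ones, with a log2 fold change of 1.21 ± 0.11, a fold of 2.32 (edgeR adjusted p = 4.57e-06). On day 20 they were 53.1, 53.3 and 53.5 cpm without and 36.9, 36.3 and 45.03 with TGF-β. The treated flasks were the lower ones, and the log2 fold change was -0.44 ± 0.11 (edgeR adjusted p = 0.00509). Without any 1 of the D20 flasks, or D20+ TGF-β replicate 1 or 2, that call was lost, at an adjusted p from 0.0174 to 0.0302.

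CALD1 (Entrez 800, chr7:134429003-134655480, plus strand) encodes caldesmon, with a smooth muscle and a non-muscle form that counts per gene do not separate. It had 745, 724 and 801 cpm at D1 and 1841, 2010 and 1549.8 at D1+ TGF-β. Each treated flask was above each untreated one, with a log2 fold change of 1.25 ± 0.09 (edgeR adjusted p = 7.64e-07). At D20 it had 1206, 1201 and 1233 cpm and at D20+ TGF-β 992, 1078 and 1121. The flasks did not overlap, but the log2 fold change of -0.19 ± 0.09 was not called (edgeR adjusted p = 0.116). In untreated cells CALD1 was higher at D20 than at D1, by 0.68 ± 0.09 (edgeR adjusted p = 4.37e-05).

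Tropomyosins lie in the groove of the filament and steer which proteins reach it. Counts per gene do not separate the transcripts of TPM1 or those of TPM2. The union of exons of TPM1 has 14700 bases and its MANE Select transcript 1217. TPM1 (Entrez 7168, chr15:63334819-63364114, plus strand) had 346, 357 and 394 cpm at D1 and 1663, 1731 and 1436 at D1+ TGF-β. The log2 fold change of 2.14 ± 0.09, a fold of 4.40, was the largest of the set, within the standard error of that of ACTA2, and TPM1 ranked 4 of the 9490 genes by p (edgeR adjusted p = 8.73e-09). On day 20 it had 497, 531 and 533 cpm without and 437, 430.1 and 503 with TGF-β. These overlapped, with a log2 fold change of -0.19 ± 0.09 (edgeR adjusted p = 0.112). From short to long treatment the level changed by a log2 fold change of -1.82 ± 0.09, the largest fall of the set in that comparison (edgeR adjusted p = 6.36e-08).

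TPM2 (Entrez 7169, chr9:35681989-35690053, minus strand) encodes β-tropomyosin and behaved otherwise. It ranged from 1034 to 1357 cpm at D1 and from 1378 to 1438 at D1+ TGF-β. The log2 fold change of 0.18 ± 0.09 was not called (edgeR adjusted p = 0.175), and it was 0.075 without D1 replicate 2. From D20, with 1549.9 to 1653 cpm, to D20+ TGF-β, with 1148 to 1209, the flasks did not overlap and the log2 fold change was -0.45 ± 0.09 (edgeR adjusted p = 0.00158). The higher level at D20 than at D1, by 0.38 ± 0.09 (edgeR adjusted p = 0.00369), was not called without D20 replicate 2 (0.0173) or D20 replicate 3 (0.0162), with no filter (0.015) or with only the libraries compared (0.0231). Without D1 replicate 2 it was 0.25 and still called (0.00416).

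MYL9 and MYLK encode a substrate and its enzyme. MYL9 (Entrez 10398, chr20:35169900-35179850, plus strand) is the regulatory light chain of smooth muscle myosin. It had 833, 633 and 729 cpm at D1 and 873, 873 and 864 at D1+ TGF-β. The treated flasks were above the untreated ones, but the log2 fold change of 0.25 ± 0.09 was not called (edgeR adjusted p = 0.0474). It was called without D1 replicate 1 (0.00477), and without D1 replicate 2, the lowest D1 flask, it was 0.17 and not called (0.0727). At D20 it had 888, 912 and 877 cpm and at D20+ TGF-β 545, 531 and 547. The difference of -0.72 ± 0.09 between these was larger than the spread of the flasks (edgeR adjusted p = 2.30e-05).

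MYLK (Entrez 4638, chr3:123328896-123603179, minus strand) encodes myosin light chain kinase and, from its inner start, telokin. Counts per gene do not separate the products of MYLK. It had 1605, 1089 and 1337 cpm at D1 and 896, 900.2 and 971 at D1+ TGF-β. Each treated flask was below each untreated one, though the log2 fold change of -0.54 ± 0.15 was not called (edgeR adjusted p = 0.0157). It was called lower without D1 replicate 2, at -0.66 (0.00200), without D20+ TGF-β replicate 3 (0.00216), with DESeq2 (0.00181), with no filter (0.00199) and with no composition factor (0.00667). At D20 MYLK had 2322, 2364 and 2433 cpm, its highest values, and at D20+ TGF-β 1209, 1287 and 856. The log2 fold change with TGF-β on day 20 was -1.09 ± 0.15 (edgeR adjusted p = 6.86e-05), and -0.93 without the lowest flask, D20+ TGF-β replicate 3. On the linear scale this was 2.12-fold lower on day 20, where the call was made.

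LMOD1 (Entrez 25802, chr1:201865584-201915676, minus strand) encodes leiomodin of smooth muscle. Its 3 flasks had 49.1, 48.3 and 46.0 cpm at D1 and 41.8, 46.4 and 45.1 at D1+ TGF-β, with overlap. The difference was a log2 fold change of -0.10 ± 0.10 (edgeR adjusted p = 0.494). At D20 the level was 107, 121 and 126 cpm, and at D20+ TGF-β 21.4, 25.0 and 29.0. These did not come close to each other, and the fall of -2.24 ± 0.10, or 4.74-fold, ranked 11 of all tested genes by p (edgeR adjusted p = 4.77e-09). Against D1, untreated D20 cells had 2.47-fold more LMOD1, a log2 fold change of 1.31 ± 0.10 (edgeR adjusted p = 2.86e-07), the largest rise of the set with time in culture.

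The comparison of D20+ TGF-β with D1+ TGF-β sets long against short treatment, words that stand for the 2 conditions and name no cause. Of the 10 genes 8 fell and 0 rose, with 17.7% of all tested genes called lower and 17.2% higher. The median log2 fold change was -0.80 for the set and 0.01 for all tested genes. Flasks did not overlap for 9 of the 10, all lower, and for 63.2% of all tested genes. Beside ACTA2 and TPM1, the falls were -1.15 for CNN1, -0.96 for ACTG2, -0.84 for LMOD1, -0.76 for CALD1, -0.70 for TAGLN and -0.69 for MYL9, with edgeR adjusted p from 3.95e-06 for CNN1 to 8.25e-04 for TAGLN. TPM2, at -0.25 ± 0.09, was not called (edgeR adjusted p = 0.0375) but was without D1 replicate 2 (0.00178) and with only the libraries compared (0.00532). MYLK, at 0.28 ± 0.15, was not called (edgeR adjusted p = 0.131) but was higher without D20+ TGF-β replicate 3, at 0.44 (0.00839).

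The comparison of D20 with D1 sets the 2 untreated conditions side by side. The words time in culture stand for this comparison in the report and name no cause. Of the 10 genes 7 rose and 0 fell, with 18.9% of all tested genes called higher and 17.6% lower. The set had a median of 0.50 and all tested genes one of 0.01. Flasks did not overlap for 9 of the 10, all higher, and for 55.6% of all tested genes. The rises were 1.31 for LMOD1, 0.82 for MYLK, 0.68 for CALD1, 0.65 for ACTA2, 0.51 for TPM1, 0.50 for CNN1 and 0.38 for TPM2. ACTG2 at 0.33 (edgeR adjusted p = 0.0372), MYL9 at 0.29 (0.0133) and TAGLN at 0.11 (0.503) were not called. MYL9 was called without D1 replicate 1 (8.39e-04) and with DESeq2 (0.00372), but without D1 replicate 2 ACTG2 was at 0.16, MYL9 at 0.18 and TAGLN at -0.084, all not called. This comparison shares its D20 flasks with D20+ TGF-β vs D20 and its D1 flasks with D1+ TGF-β vs D1, so a high or low flask enters both.

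The response at D20 minus the response at D1 was negative for all 10 genes, as it was for 47.5% of all tested genes. It was called lower for 9 of the 10 and higher for 0, where 5.87% of all tested genes were called lower and 4.51% higher. The median difference was -1.37 on the log2 scale for the set and 0.02 for all tested genes. TPM1 had the smallest p of all 9490 genes, with a difference of -2.33 ± 0.13 (edgeR adjusted p = 7.57e-07), and LMOD1 ranked 4 with -2.14 ± 0.14 (1.70e-06). Both reached such a difference by other routes, since TPM1 rose on day 1 and LMOD1 fell on day 20. CALD1 at -1.44, CNN1 at -1.65, ACTA2 at -1.94 and ACTG2 at -1.29 were also called. Their edgeR adjusted p ranged from 1.31e-05 for CALD1 to 2.49e-04 for ACTG2.

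MYL9 differed at -0.97 ± 0.12 between the days (edgeR adjusted p = 1.47e-04). TAGLN at -0.81 ± 0.19 (edgeR adjusted p = 0.00842) and TPM2 at -0.63 ± 0.13 (0.00412) were close to the threshold. TAGLN was not called without D1 replicate 3, without any 1 of the D1+ TGF-β or D20 flasks, without D20+ TGF-β replicate 1 or 2, or with no composition factor (adjusted p from 0.0105 to 0.0255). TPM2 was not called without any 1 of the D1+ TGF-β flasks, D20 replicate 2 or 3, or D20+ TGF-β replicate 1 (0.0105 to 0.0151). MYLK, called lower with TGF-β on day 20 and not called on day 1, had a difference of -0.54 ± 0.21 that was not called (edgeR adjusted p = 0.0784).

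Levels of different genes were compared per length, in cpm per kilobase of the union of exons. With this length TPM2 was the most abundant of the set in every condition, at 370.4 to 507 cpm per kilobase, followed by MYL9 at 193 to 318 and TAGLN at 155 to 284. CNN1 and LMOD1 were lowest or next to lowest in all conditions but 1, with 13.3 to 30.8 and 6.40 to 30.1 cpm per kilobase. The order rests on the length used. With the MANE Select transcript TPM1 was above TPM2 at D1+ TGF-β, at 1323 against 1178 cpm per kilobase, and MYL9 ranked 3 to 6. TPM1 at D1+ TGF-β ranked 7 of 10 with the union of exons, 3 with the longest transcript and 1 with the MANE Select transcript, and ACTA2 there ranked 5, 6 and 3. MYLK has a union of 31537 exon bases but a MANE Select transcript of 10113.

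Genes outside the set with the nearest pattern were found by the root mean square difference (RMS) of the 4 condition means of log2 cpm, each gene centred on its own mean. For ACTA2 they were ADAM19, a metalloprotease (RMS 0.14), NUAK1, a protein kinase (0.17), the antisense RNA STARD4-AS1 (0.18), MAP3K7CL (0.18) and BPGM, a bisphosphoglycerate mutase (0.18). ADAM19 had means of 80.6 cpm without and 308 with TGF-β on day 1, and of 92.7 and 128.6 on day 20, and NUAK1 means of 19.2, 87.0, 26.7 and 40.5 in the same order. The nearest gene was DNAJB4 to ACTG2, AHCYL1 to TAGLN, CDH6 to CNN1, PRICKLE1 to CALD1, STARD4-AS1 to TPM1, PTAR1 to TPM2, MPP5 to MYL9, MR1 to MYLK and APOE to LMOD1, at an RMS of 0.01 for PTAR1 to 0.23 for STARD4-AS1. Within the set, ACTG2 and CNN1 were nearest to each other (RMS 0.14) and ACTA2 and LMOD1 farthest apart (1.17).

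Other genes of the pathway were followed as lists, beginning with regulators of contractile gene transcription, of which 9 of 11 were tested. Over all tested genes, the share called in either direction was 13.4% on day 1, 27.5% on day 20, 34.8% between the treated conditions, 36.4% for D20 vs D1 and 10.4% for the difference of responses. On day 1, 3 rose with TGF-β and 1 fell, and on day 20, 2 rose and 4 fell. FHL2, a LIM-domain cofactor, rose by 0.90 ± 0.11 on day 1 (edgeR adjusted p = 9.25e-05), and CSRP1, a cofactor of SRF, by 0.51 ± 0.07 (2.13e-04). FHL1 fell by 1.91 ± 0.13 on day 20 (edgeR adjusted p = 1.58e-07), from 239 to 63.6 cpm, while ELK1 rose by 0.47 ± 0.08 (4.64e-04). From short to long treatment, 0 rose and 4 fell, among them CSRP1 at -1.14 ± 0.07 (edgeR adjusted p = 3.50e-07) and SRF itself at -0.63 ± 0.08 (5.34e-05), from 68.3 to 44.1 cpm. From D1 to D20, 2 rose, FHL1 by 1.14 and FHL2 by 0.90, and 1 fell. The difference of responses was called lower for 4, with CSRP1 at -0.93 and FHL2 at -1.40, and higher for 1. SRF was not called with TGF-β on day 1, at 0.27 (edgeR adjusted p = 0.0298). MKL1 and MKL2, which encode MRTF-A and MRTF-B, were tested and not called in any comparison. Leaving out D20 replicate 2 took the day 20 count from 6 to 3, leaving out D1+ TGF-β replicate 2 or D20+ TGF-β replicate 1 took that of the treated flasks from 4 to 2, and D1+ TGF-β replicate 2 or 3 or D20 replicate 2 or 3 took the difference from 5 to 3.

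Of 18 other smooth muscle contractile and cytoskeletal genes, 12 were tested. With TGF-β 2 rose and 1 fell on day 1, and 1 rose and 6 fell on day 20. PDLIM5, a PDZ and LIM domain protein, rose by 1.11 ± 0.10 on day 1 (edgeR adjusted p = 6.30e-06), and CKB, brain-type creatine kinase, fell by 0.91 ± 0.11 (6.21e-05). CKB fell again on day 20, at -1.10 ± 0.11 (edgeR adjusted p = 5.53e-06), with the small heat shock protein HSPB6 at -0.73 ± 0.12 (2.82e-04). Between the treated conditions 0 rose and 4 fell, PDLIM5 at -1.28 and PDLIM7 at -1.10, and the count was 8 without D1 replicate 2. With time in culture 2 rose, SYNPO2, or synaptopodin-2, by 1.05 ± 0.22 (edgeR adjusted p = 0.00138), and 2 fell, SMTN, or smoothelin, at -1.25 ± 0.12 (2.46e-06). The difference of responses was called lower for 3, with PDLIM7 at -1.05 and PDLIM5 at -0.94, and higher for 1. The day 1 count was 5 instead of 3 without D1 replicate 3, and that of D20 vs D1 was 2 instead of 4 without D20 replicate 3.

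The list headed non-muscle counterparts held 15 genes of the cytoskeleton related to the set, and all were tested. The heading is a label and makes no claim on where each gene, such as TMOD1, is expressed. On day 1, 3 rose and 1 fell, with CNN3, acidic calponin, at 0.59 ± 0.11 (edgeR adjusted p = 0.00146) and CNN2 at 0.38 ± 0.07 (0.00201). On day 20, 0 rose and 8 fell, with the tropomodulins TMOD1 at -2.14 ± 0.20 (edgeR adjusted p = 3.47e-06) and TMOD2 at -0.85 ± 0.08 (1.74e-06), which cap actin filaments. From short to long treatment 0 rose and 11 fell, and the list median was -0.50. CNN3 was at -0.96 there ± 0.11 (edgeR adjusted p = 1.59e-05) and ACTB at -0.84 ± 0.10 (2.78e-05). With time in culture 4 rose, TMOD1 by 1.54 and TMOD2 by 0.79, and 3 fell. The difference of responses was called for 8, all lower, with CNN2 at -0.94 and CNN3 at -1.17.

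The counts of this list turned on single flasks. The day 1 count of 4 was 1 without D1+ TGF-β replicate 1 or 2 and 2 without replicate 3. The day 20 count of 8 was 5 without D20 replicate 2 or D20+ TGF-β replicate 2. The count of 8 for the difference was 3 to 5 without any 1 of the D1+ TGF-β or D20 flasks or D20+ TGF-β replicate 1. Of the 14 genes listed as striated muscle counterparts 0 were tested, and 12 were under 1 cpm in every library. Among these were the skeletal and cardiac actins ACTA1 and ACTC1.

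Genes that control the phosphorylation of myosin light chain were the last list, with 22 of 23 tested. With TGF-β 1 rose and 3 fell on day 1, among them CALM3, a calmodulin gene, at -0.41 ± 0.07 (edgeR adjusted p = 0.00127). On day 20, 1 rose and 10 fell, among them PPP1R12B, a targeting subunit of myosin phosphatase, at -1.06 ± 0.09 (edgeR adjusted p = 6.86e-07). Between the treated conditions 1 rose and 5 fell, with the kinase DAPK3 at -0.49 and CALM2 at -0.70. With time in culture 5 rose, among them PPP1R12B by 0.84, and 2 fell. The difference was called for 4, all lower, with PPP1R12B at -0.96 and CALM2 at -0.90. The day 1 count of 4 was 2 without D1+ TGF-β replicate 1 and 1 without replicate 2, and that of the treated conditions was 10 instead of 6 without D1 replicate 2. The count of 7 with time in culture was 2 to 4 without D1 replicate 1 or 3 or any 1 of the D20 flasks.

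**Figure D5:**
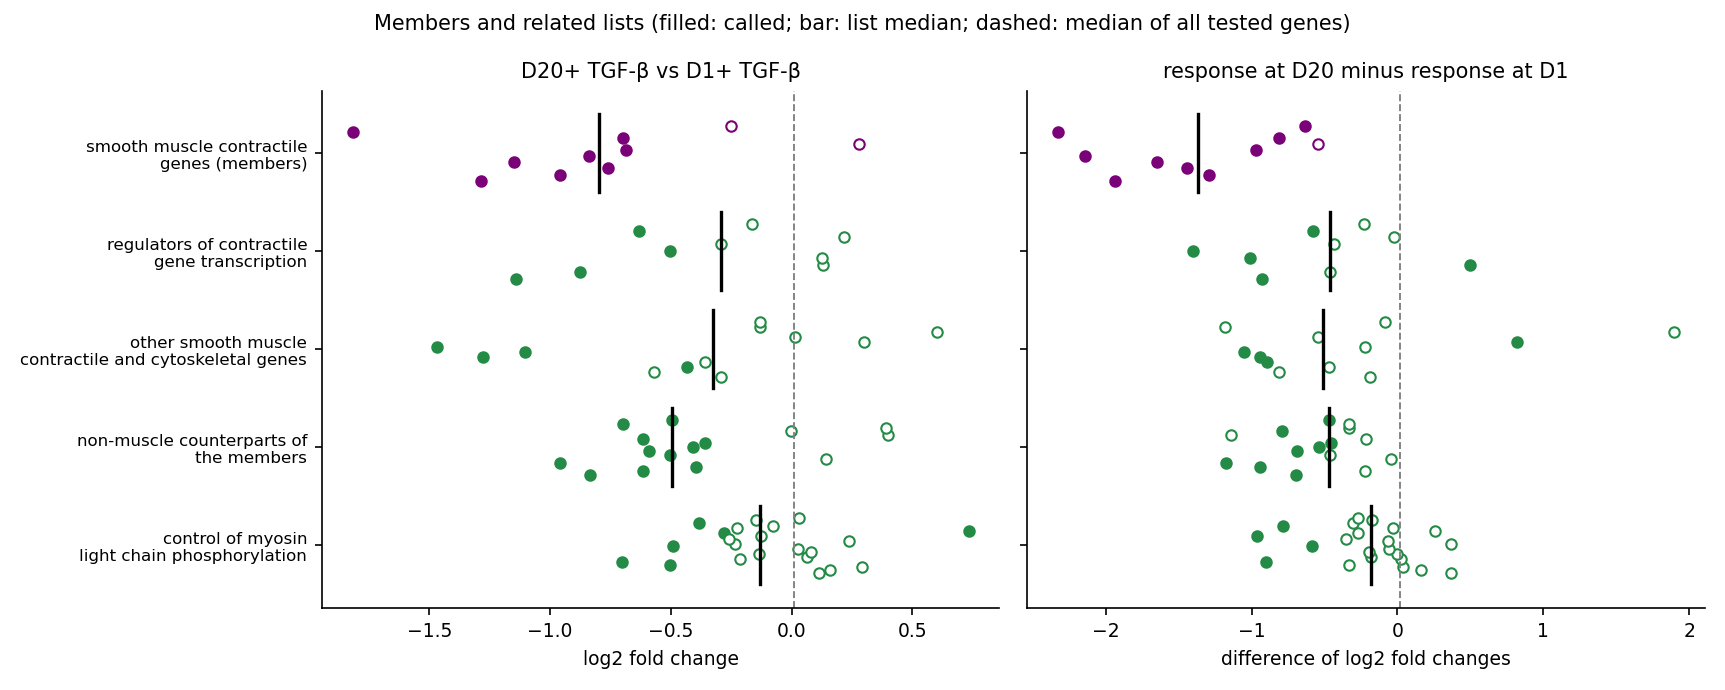
Log2 fold change of D20+ TGF-β against D1+ TGF-β (left) and difference of the log2 responses to TGF-β between day 20 and day 1 (right) for the contractile genes and 4 related lists (rows). Points are genes, filled when called, with the list median as a bar and the median of all tested genes as a dashed line; the contractile genes have the lowest medians, -0.80 and -1.37.

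The medians of the difference of responses were -0.46 for the regulators, -0.51 for the other smooth muscle genes, -0.47 for the non-muscle counterparts and -0.18 for the light chain genes, beside -1.37 for the set.

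The share of each list that was called can be set beside that of all tested genes. For the regulators it was 44.4% on day 1, 66.7% on day 20, 44.4% between the treated conditions, 33.3% for D20 vs D1 and 55.6% for the difference. For the other smooth muscle genes these shares were 25.0%, 58.3%, 33.3%, 33.3% and 33.3%, and for the non-muscle counterparts 26.7%, 53.3%, 73.3%, 46.7% and 53.3%. The light chain genes had 18.2%, 50%, 27.3%, 31.8% and 18.2%. For D20 vs D1 the shares of 3 of these 4 lists were thus under the 36.4% of all tested genes. Between the treated conditions those of the other smooth muscle genes and of the light chain genes were under the 34.8% of all tested genes.

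Pericyte markers, of which 4 of 6 were tested, summed to 386 to 455 cpm at D1, 372 to 412 after a day of TGF-β, 343 to 362 at D20 and 309 to 338 with long treatment. Members of this list went opposite ways with TGF-β on day 20, RGS5 rising by 1.88 ± 0.40 (edgeR adjusted p = 0.00189) and NOTCH3 falling by 1.19 ± 0.15 (3.43e-05). The 9 fibroblast markers summed to 14103 to 16577 cpm at D1, 19605 to 20207 after a day of TGF-β, 18341 to 19684 at D20 and 22142 to 23954 with long treatment. With TGF-β on day 20 COL1A1 was higher by 0.99 (edgeR adjusted p = 2.39e-05), while THY1 at -1.20 (1.33e-07), DCN at -0.98 (1.93e-04) and PDGFRA at -0.53 (0.00294) were lower. The part of these markers in the results above was not tested.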

How the data were processed

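Per the labels, the tables hold WI-38 RNA in 4 conditions of 3 flasks, each library read on 4 lanes. The authors trimmed reads with Trimmomatic, mapped them to hg19 with Rsubread and deposited raw counts per gene and lane, without normalization. They also deposited log2 cpm per lane as voom writes them. The counting program and its use of strand are not given in the sources used here, although the library kit was directional.

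Here the counts of the 48 lane columns were summed to 12 libraries, since lanes repeat 1 RNA. Genes reaching 10 cpm in 6 or more libraries, 9490 in number, were tested with edgeR 4.0.16 in R 4.3.3 (TMM factors, quasi-likelihood fit, 1 mean per condition over all 12 libraries, Benjamini-Hochberg adjustment, called at an adjusted p under 0.01). The standard error was the size of the fold change on the log2 scale divided by the square root of F. The common biological coefficient of variation was 9.35%. Values in the text are cpm from TMM-scaled libraries, and their SDs between flasks include counting error. With 3 flasks against 3 an exact permutation test cannot reach a p under 0.05, so none was used.

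The contractile genes and the related lists were chosen with earlier results of these data known, so no p was computed over a list. Named genes were the 10 members, their nearest genes by pattern and, per list and comparison, the 2 called genes with the smallest p, of which 1 gene is not reported here. Gene coordinates and lengths are from GENCODE (GRCh37), promoters from RefSeq. Alternatives were RLE factors, no composition factor, no filter, DESeq2 1.42.0, limma-voom (limma 3.58.1) on libraries or on lanes, only the libraries compared, each library left out, replicate number as a block and 2 other lengths. Limma on the deposited log2 values and the MANE Select length were chosen after seeing the data. The code was tested on simulated data.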

Additional observations from a re-analysis of the deposited data

Results flagged for a closer look

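Of all tested genes, 10.4% were called in either direction, and 5.87% lower, by the test of the difference itself (edgeR, adjusted p under 0.01). By that test the response to TGF-β differed between day 20 and day 1 for 9 of the 10 contractile genes. The differences on the log2 scale, D20 minus D1, were -1.94 for ACTA2, -1.29 for ACTG2, -0.81 for TAGLN, -1.65 for CNN1, -1.44 for CALD1, -2.33 for TPM1, -0.63 for TPM2, -0.97 for MYL9 and -2.14 for LMOD1. Of the genes of related lists named in the report, it differed for CSRP1 at -0.93, FHL2 at -1.40, FHL1 at -1.01, SRF at -0.58, ELK1 at 0.50, PDLIM7 at -1.05, PDLIM5 at -0.94, CNN2 at -0.94, CNN3 at -1.17, TMOD2 at -0.79, ACTB at -0.69, PPP1R12B at -0.96, DAPK3 at -0.59 and CALM2 at -0.90, and of the cell type markers for KRT18 at -1.40, NOTCH3 at -0.99 and THY1 at -0.99. ELK1 was the gene of these with a positive difference. The calls of TAGLN and TPM2 were lost without single libraries, as given in the report. Without single libraries the count called for the difference also fell from 5 to 3 for the regulators. For the non-muscle counterparts it fell from 8 to as few as 3. Calls of some of the related genes named here were thus lost as well.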

How the results depend on the processing

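Over 21 alternatives, 978 of 1040 log2 fold changes of the contractile genes kept direction and call, 39 lost and 21 gained a call, and 2 changed sign: TAGLN in D20+ TGF-β vs D20 was -0.00997 without D20+ TGF-β replicate 3, in a range up to 0.0989 with single libraries left out, and in D20 vs D1 it was -0.0843 without D1 replicate 2, in a range up to 0.248. No count of called genes of the set moved by more than 1.5 times. With single libraries left out the counts were 6 to 7 for D1+ TGF-β vs D1, 4 to 6 for D20+ TGF-β vs D20, 8 to 9 for long against short treatment, 5 to 8 for D20 vs D1 and 7 to 9 for the difference of responses. With the 48 lanes as samples, which repeat the same RNA, they were 9, 8, 10, 9 and 10. With the replicate number as a block they were 6, 6, 8, 7 and 9, the same as without it, and no call of a single gene changed. The numbers were not taken to pair the flasks, since 4 of 18 same-numbered pairs had a correlation over 0.1, in a range of -0.22 to 0.32, and 5 of 12 libraries correlated best with their own number. Among related lists, counts with the 48 lanes as samples were higher by more than 1.5 times in 13 of 20 cases. Levels per length depend on the transcript length used. Depth did not limit the set, whose lowest raw count in a library was 243.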
